A study of Danio rerio with 4 samples.

Results

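Wnt signaling was examined gene by gene in RNA-seq counts of cardiac endothelial cells with and without a dominant-negative Brg1. The genes were the 50 zebrafish Wnt ligands, receptors, secreted antagonists and intracellular components of a list matched to the 32520 Ensembl genes of the count data by their symbols. The matching read no counts, but 6 members took their symbols from the study's table of differentially expressed genes, which rests on these data. The list was also drawn up with earlier results of these data known. The 50 genes comprised 15 ligands, 16 receptors, 14 secreted antagonists and 5 intracellular genes. All 50 had a row in the counts, and 34 had enough reads to be tested.

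The study asked which genes depend on endothelial Brg1, the central ATPase of the SWI/SNF chromatin-remodeling complex, during zebrafish heart regeneration. Adult fish of both groups carried *kdrl:eGFP* and *ubi:loxp-DsRed-STOP-loxp-DN-xBrg1*, and were given 4-hydroxytamoxifen (4-HT, which activates CreER) for 3 days before amputation of the ventricle, as the labels give it, although the methods of the study also describe a shorter bath. The DNK group additionally carried *kdrl:CreER*, so that DN-xBrg1, a dominant-negative *Xenopus* Brg1, could be switched on in cells in which the *kdrl* promoter is active, whereas the CtrlK fish lacked CreER. EGFP-positive cells were sorted from pooled ventricles at 7 days post-amputation (dpa), with 2 libraries per group (CtrlK1, CtrlK2, DNK1 and DNK2). The *kdrl* promoter is active in both the endocardium and the coronary vessels, so each library mixes these cells. No row of the counts stands for the *Xenopus* transgene, so its expression was not checked. The endogenous *smarca4a* (*brg1*) had 621 and 756 counts in the CtrlK libraries and 1153 and 798 in the DNK libraries, with a log2 fold change of 0.40 (adjusted p = 0.27, edgeR quasi-likelihood test).

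Wnt proteins are secreted, lipid-modified ligands that bind Frizzled (Fzd) receptors. With the co-receptors Lrp5 and Lrp6 they stabilize β-catenin, which enters the nucleus and activates target genes with Tcf and Lef factors. Other Wnts act without β-catenin, for instance through Ror receptors and the planar cell polarity proteins. Secreted antagonists act outside the cell, where Sfrp proteins, Frzb and Wif1 bind the ligands, Dkk proteins bind the co-receptors and Notum removes the lipid of the ligand. In the vertebrate heart, this pathway is known for its roles in valve and endocardial cushion formation.

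The libraries held between 25189862 and 28770727 counts, at which 3 counts correspond to 0.104 to 0.119 CPM (counts scaled to a common library total). All 11 endothelial markers had counts, and their summed level was 4819 and 5373 CPM in CtrlK and 4699 and 4816 CPM in DNK. Of these 11, 9 were negative, and edgeR called 3 lower and 1 higher, where 4.23% and 4.22% of all tested genes were. Called lower in DNK were *kdrl* itself (log2 fold change -0.47, adjusted p = 0.011), *pecam1* (-0.66, 0.034) and *egfl7* (-0.35, 0.025). *flt1* was called higher (0.54, adjusted p = 0.0069, edgeR quasi-likelihood test for all). Genes of other cell types were also present. The 10 matched cardiomyocyte genes summed to 13760 and 4451 CPM in CtrlK1 and CtrlK2 and to 1406 and 170.9 CPM in DNK1 and DNK2, with 9 of 10 negative and none at 0 throughout. The 5 erythrocyte genes summed to 48.1 to 194 CPM in CtrlK and 3.41 to 15.1 in DNK, and the 10 leukocyte genes to 390 to 415 and 218 to 238 CPM, with *lyz* at 0 in every library. The 4 thrombocyte genes summed to 102.8 to 107.1 CPM in CtrlK and 71.3 to 85.8 in DNK, and the 8 mural cell genes to 142 to 156 and 76.1 to 76.3 CPM. Of the 8 mural cell genes edgeR called 2 lower, *myh11a* and *rgs5a* (651 and 994 counts in CtrlK, 25 and 4 in DNK). Of 9 tested leukocyte genes it called 4 lower, where 4.23% of all tested genes were. None of either list was called higher. The leukocyte gene *mpx*, called lower, had 0 counts in both DNK libraries, so its call is a description only. Most thrombocyte counts were those of *thbs1b* (2503 and 2446 in CtrlK, 2367 and 1868 in DNK), which was not called. The other 3 were called lower by edgeR, as 4.23% of all tested genes were. *itga2b* had 37 and 172 counts in CtrlK and 0 in both DNK libraries. *mpl* had 57 and 87 against 9 and 4, and *gp1bb* had 102 and 252 against 40 and 26. *itga2b* and *mpl* reached the filter on low counts only through CtrlK, the group in which they were higher, so their calls are a description only. The 12 epicardial and fibroblast genes summed to 2416 to 2741 CPM in CtrlK and 3481 to 3691 in DNK. This sum does not count such cells. Its *aldh1a2* (12480 and 17716 counts in CtrlK, 14918 and 16429 in DNK) encodes an enzyme that the study describes as activated in the endocardium too. The part of these differences in the results on Wnt genes was not tested.

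Among the Wnt genes, *wnt11* and *sfrp5* rose in DNK and *notum1b* fell, by edgeR's quasi-likelihood test, with a threshold of 0.05 on the p adjusted by Benjamini-Hochberg over all 17151 tested genes. The other 31 tested members were not called. The called share of 3 in 34 (8.82%) lay near the 8.45% called among all tested genes (4.22% higher and 4.23% lower), and the groups did not overlap for 52.9% of the members against 55.5% of all genes. The median log2 fold change was -0.09 over the tested members and -0.02 over all tested genes. Of the members, 8 had an unadjusted p under 0.05, which 23.9% of all tested genes also had, and DESeq2, the tool of the study, called 2 higher and 4 lower, where it called 15.8% of all genes. By class, calls were made for 1 of 8 tested ligands, 0 of 15 receptors, 2 of 7 secreted antagonists and 0 of 4 intracellular genes. At an unadjusted p under 0.05 there were 2 receptors and 1 intracellular gene, and DESeq2 called 1 receptor and 0 intracellular genes. The tested members *sfrp1a* and *wnt7ba* reached the filter on low counts through a single group, CtrlK for the former and DNK for the latter.

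**Figure D1:**
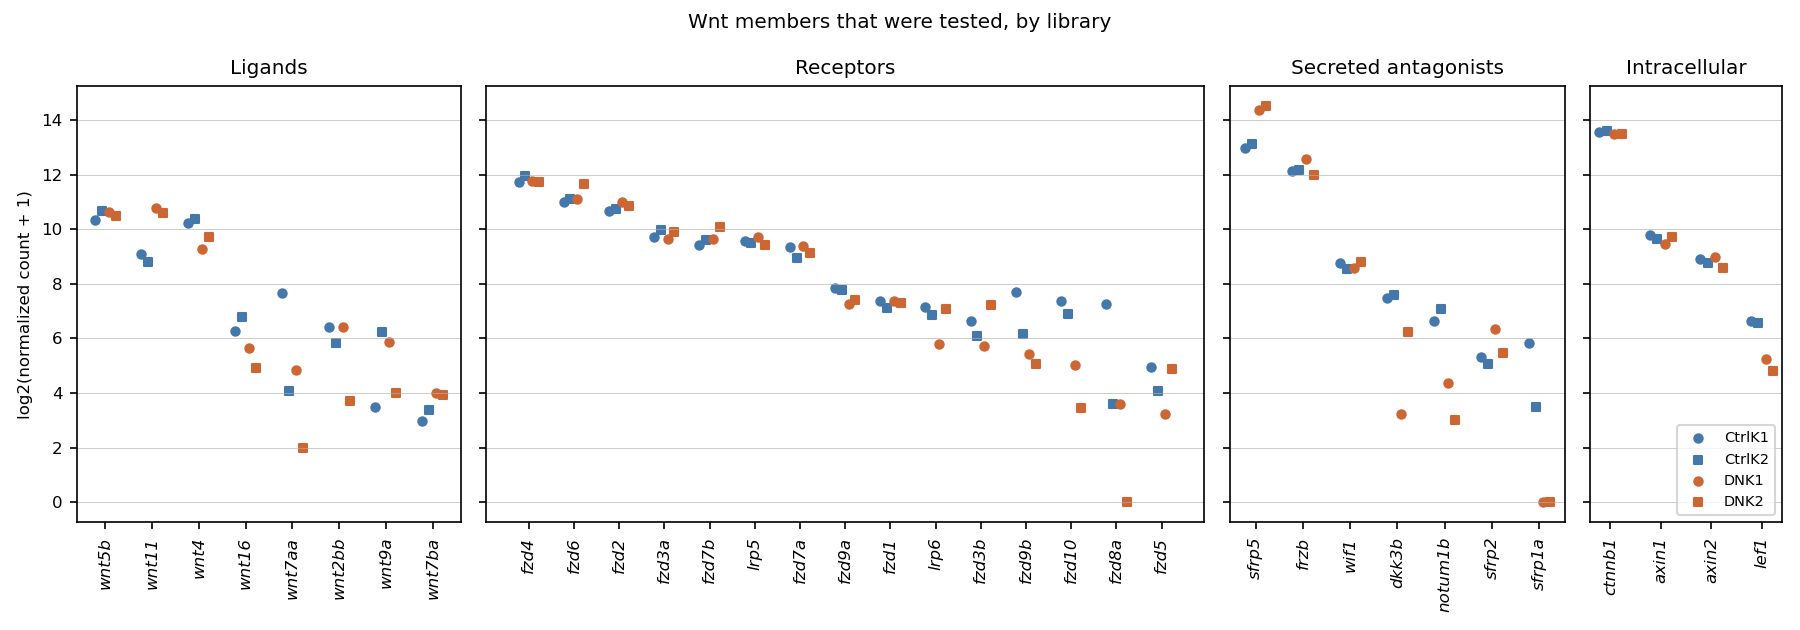
Normalized counts of the 34 tested Wnt genes in each library, as log2 of the normalized count plus 1, grouped by class and ordered by mean; blue marks CtrlK and orange DNK, circles replicate 1 and squares replicate 2. The DNK points of *wnt11* and *sfrp5* lie above and those of *notum1b* below both CtrlK points, while the points of *fzd4*, *axin1* and *axin2* overlap between the groups.

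Among the ligands, *wnt11* (ENSDARG00000014796), best known for signaling without β-catenin, had 475 and 475 counts in CtrlK1 and CtrlK2, against 1865 and 1552 in DNK1 and DNK2. Both DNK libraries thus lay far above both CtrlK libraries. After normalization these came to 495 ± 70.2 in CtrlK and 1650.4 ± 127 in DNK (mean ± SD, n = 2 libraries each), 3.34-fold higher in DNK, with a log2 fold change of 1.74 (standard error, SE, 0.17, adjusted p = 0.0017, edgeR quasi-likelihood test). It was called in 7 of 7 alternative analyses of all libraries and with each of the 4 libraries left out, when the log2 fold change lay between 1.60 and 1.89. In a bulk sample, a difference in RNA per cell and a difference in the number of cells that express a gene cannot be told apart, here or for any gene below. Of all counts of the 15 ligand genes, *wnt11* took 15.9% in CtrlK1 and 12.1% in CtrlK2 but 41.8% in DNK1 and 39.8% in DNK2. The class as a whole differed less, with 3435 and 3672 summed normalized counts in CtrlK against 4168 and 3922 in DNK. Outside these 15 genes, the further *wnt11* gene *wnt11f2* had 23 and 50 counts in CtrlK and 5 and 12 in DNK. Both DNK libraries lay below both CtrlK libraries, but it was not called (log2 fold change -2.12, SE 1.03, adjusted p = 0.27, edgeR quasi-likelihood test).

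The ligand *wnt4* (ENSDARG00000071208), which can act with or without β-catenin depending on the tissue, pointed the other way. It had 1037 and 1399 counts in CtrlK1 and CtrlK2, against 656 and 838 in DNK1 and DNK2, without overlap between the groups. After normalization these came to 1250.3 ± 86.6 in CtrlK and 727 ± 163 in DNK (mean ± SD, n = 2 libraries each), a log2 fold change of -0.78 (SE 0.20, adjusted p = 0.056, edgeR quasi-likelihood test). DESeq2 called it lower (adjusted p = 0.0082), and over the 7 alternatives the adjusted p lay between 0.0014 and 0.070, with calls in 4 of them. With a library left out it was called in 1 of 4 fits, without DNK2 (adjusted p = 0.042).

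The ligand *wnt5b* (ENSDARG00000102464), another Wnt of the branch without β-catenin, had 1138 and 1747 counts in CtrlK1 and CtrlK2 and 1683 and 1425 in DNK1 and DNK2. The groups overlapped, and the log2 fold change was 0.03 (SE 0.16, adjusted p = 0.94, edgeR quasi-likelihood test). For *wnt16*, a ligand required for blood stem cell formation in the zebrafish embryo, the counts were 67 and 116 in CtrlK and 53 and 29 in DNK. Both DNK libraries lay below both CtrlK libraries, but the log2 fold change of -1.24 had a SE of 0.60 (adjusted p = 0.27, edgeR quasi-likelihood test).

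The remaining tested ligands were low, and in all of them but *wnt7ba* the replicates lay far apart. *wnt7aa* had 176 and 17 counts in CtrlK1 and CtrlK2 and 30 and 3 in DNK1 and DNK2, so that CtrlK1 stood apart from the other 3 libraries. *wnt2bb*, whose zebrafish mutant is known for impaired liver formation, had 74, 59, 91 and 12 counts in CtrlK1, CtrlK2, DNK1 and DNK2. In the same order *wnt9a*, a ligand known for a role in zebrafish blood stem cell development, had 9, 80, 61 and 15. In both, the libraries of a group differed more than the groups did. *wnt7ba* had 6 and 10 counts in CtrlK and 16 and 14 in DNK, without overlap (adjusted p = 0.74, edgeR quasi-likelihood test).

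**Figure D2:**
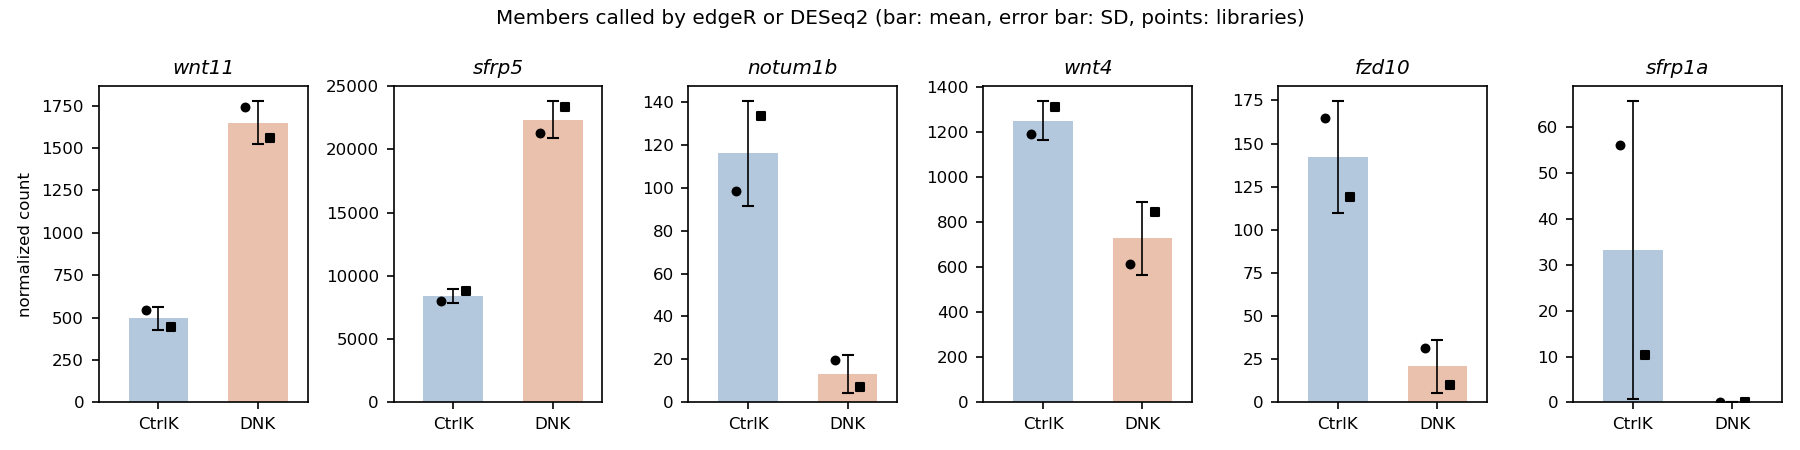
Normalized counts of the 6 members called by edgeR or DESeq2, with bars for the group mean, error bars for the SD (n = 2 per group), circles for replicate 1 and squares for replicate 2; every vertical axis starts at 0 and has its own scale. *wnt11* and *sfrp5* are higher in DNK, *notum1b*, *wnt4* and *fzd10* are lower, and *sfrp1a* has counts in the CtrlK libraries but 0 in both DNK libraries.

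Among the secreted antagonists, *sfrp5* (ENSDARG00000039041), which binds Wnt ligands through a domain like that of the Frizzled receptors, had 7003 and 9357 counts in CtrlK1 and CtrlK2, against 22829 and 23253 in DNK1 and DNK2. The lower DNK library held more than the higher CtrlK library by a wide margin. Its normalized counts rose from 8401 ± 525 to 22341 ± 1473 (mean ± SD, n = 2 libraries each), 2.66-fold, with a log2 fold change of 1.41 (SE 0.09, adjusted p = 0.00027, edgeR quasi-likelihood test). It was called in 7 of 7 alternatives, and with each library left out the log2 fold change lay between 1.34 and 1.48. Its share of the counts of the 14 antagonist genes was 60.3% and 62.3% in CtrlK1 and CtrlK2, against 76.5% and 83.5% in DNK1 and DNK2. The summed normalized counts of the class were 13321 and 14076 in CtrlK and 27837 and 28012 in DNK, and most of that difference was *sfrp5*.

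*notum1b* (ENSDARG00000117145), a copy of the secreted deacylase that inactivates Wnt ligands, had 86 and 142 counts in CtrlK1 and CtrlK2, against 21 and 7 in DNK1 and DNK2. Both CtrlK libraries lay well above both DNK libraries at a level far below that of *sfrp5*'s counts. The normalized counts fell from 116 ± 24.4 to 13.3 ± 8.88 (mean ± SD, n = 2 libraries each), 8.60-fold lower, with a log2 fold change of -3.10 (SE 0.72, adjusted p = 0.043, edgeR quasi-likelihood test). The call stood close to the threshold. The adjusted p lay between 0.00098 and 0.052 over 6 alternatives, of which 5 called it, and the call was lost without CtrlK1 (0.11), without CtrlK2 (0.21) and without DNK2 (0.12), each with 3 libraries in the edgeR fit. The other copies, *notum1a* and *notum2*, had 0 counts in every library.

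*sfrp1a* (ENSDARG00000035521), from the same family as *sfrp5*, was read 49 times in CtrlK1 and 11 times in CtrlK2, with 0 counts in DNK1 and DNK2. Against a floor of 3 counts per library it was at least 11-fold lower in DNK, a bound that rests on CtrlK1 and is at least 3.42-fold from CtrlK2 alone. edgeR's quasi-likelihood test did not call it (adjusted p = 0.071), DESeq2 did (adjusted p = 0.0073), and the adjusted p lay between 0.0034 and 0.10 over 6 alternatives. It reached the filter on low counts only through CtrlK, the group in which it was higher, so the DESeq2 call is a description only. *sfrp1b* had 0 counts in every library. *sfrp2*, also of this family, had 34 and 35 counts in CtrlK and 87 and 43 in DNK (adjusted p = 0.55, edgeR quasi-likelihood test), so the direction was shared by both DNK libraries but their spread was wide.

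*frzb*, a soluble Frizzled-related protein with large counts in all libraries, had 3901 and 4868 in CtrlK1 and CtrlK2, against 6470 and 4034 in DNK1 and DNK2. The DNK libraries lay on either side of the CtrlK level, with 4518 ± 64.1 normalized counts for CtrlK against 5047 ± 1400.0 for DNK (mean ± SD, n = 2 libraries each) and a log2 fold change of 0.16 (SE 0.18, adjusted p = 0.67, edgeR quasi-likelihood test). *wif1* had 378, 399, 413 and 441 counts in CtrlK1, CtrlK2, DNK1 and DNK2, and its normalized counts of 404 ± 42.0 and 414 ± 41.1 differed by less than the spread between replicates. *dkk3b*, a divergent member of the Dickkopf family, had 153 and 203 counts in CtrlK and 9 and 74 in DNK. Both DNK libraries were lower, but they lay far from each other, and the log2 fold change of -2.15 (SE 0.89) had an adjusted p of 0.21 in edgeR's quasi-likelihood test. Without DNK2 the log2 fold change was -4.42 (adjusted p = 0.017) and without DNK1 it was -1.30 (adjusted p = 0.20), while without CtrlK1 or CtrlK2 the adjusted p was 0.42 or 0.44. Without any filter on low counts the adjusted p was 0.0017, and over the 6 alternatives of all libraries it lay between 0.0017 and 0.21.

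**Figure D3:**
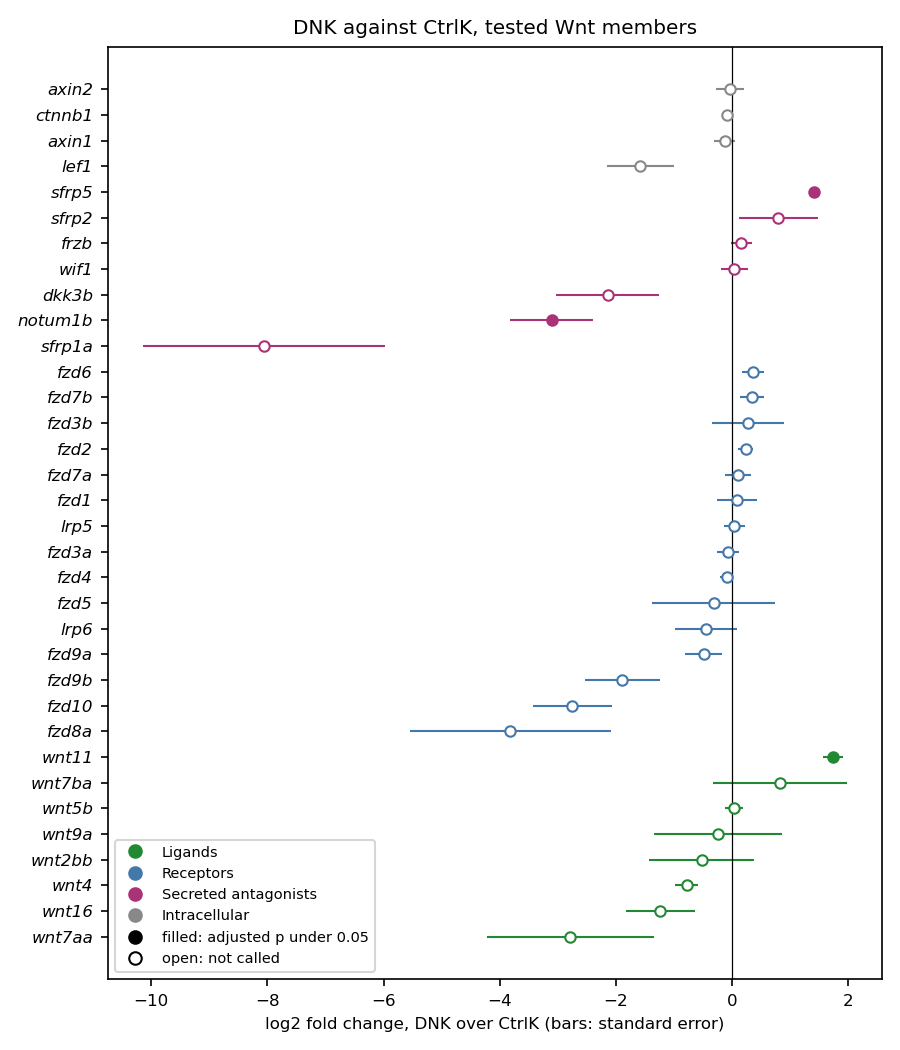
Log2 fold change of DNK over CtrlK for the 34 tested Wnt genes from edgeR, with bars for the SE, coloured by class; filled points have an adjusted p under 0.05. Most receptors lie near 0, with *fzd8a*, *fzd9b* and *fzd10* far to the left and not called, and the value of *sfrp1a* is a fitted estimate against 2 libraries at 0 counts that gives no bound.

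None of the 15 tested receptors was called by edgeR, which called 8.45% of all tested genes. The Frizzled genes with the largest counts differed little between the groups. *fzd4* is a Frizzled known for its role in retinal vessel growth in mammals. Its row was named from the table of identifiers alone, and the rows around it lie on another chromosome than the gene of that name, so its identity is less certain. It had 2938 and 4173 counts in CtrlK1 and CtrlK2, against 3686 and 3360 in DNK1 and DNK2. The libraries overlapped, with 3640.4 ± 384 normalized counts for CtrlK against 3409 ± 42.6 for DNK (mean ± SD, n = 2 libraries each), a log2 fold change of -0.09 (SE 0.12, adjusted p = 0.69, edgeR quasi-likelihood test). *fzd6*, which takes part in planar cell polarity, had 1796 and 2322 counts in CtrlK and 2335 and 3211 in DNK. *fzd2*, a receptor of both branches, had 1402 and 1802 counts in CtrlK and 2165 and 1838 in DNK. For both genes the DNK libraries lay above the CtrlK libraries after normalization. The log2 fold changes were 0.35 and 0.23 (SEs 0.19 and 0.13, adjusted p = 0.32 and 0.33, edgeR quasi-likelihood test). For *fzd6*, however, DNK1 (2178.6 normalized counts) barely exceeded CtrlK2 (2176.8), and without DNK2 the log2 fold change was 0.04. *fzd7b* had 601 and 838 counts in CtrlK and 848 and 1067 in DNK, a log2 fold change of 0.34 (SE 0.20, adjusted p = 0.38). Its copy *fzd7a* had 571, 528, 717 and 557 counts in CtrlK1, CtrlK2, DNK1 and DNK2, with overlap between the groups.

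The lower Frizzled genes were more variable. *fzd10* (ENSDARG00000068213), a receptor linked to β-catenin signaling, had 144 and 127 counts in CtrlK1 and CtrlK2, against 34 and 10 in DNK1 and DNK2. The groups were well apart, with 142 ± 32.6 normalized counts for CtrlK against 20.9 ± 15.3 for DNK (mean ± SD, n = 2 libraries each), a log2 fold change of -2.75 (SE 0.68, adjusted p = 0.054, edgeR quasi-likelihood test). DESeq2 called it lower (adjusted p = 0.0039), as did 4 of the 7 alternatives in all, over which the adjusted p lay between 0.00069 and 0.054. With a library left out it was called in 1 of 4 fits, without DNK1 (log2 fold change -3.80, adjusted p = 0.037), while without DNK2 the log2 fold change was -2.16 (adjusted p = 0.14). *fzd9b* had 180 and 75 counts in CtrlK1 and CtrlK2 and 45 and 32 in DNK1 and DNK2, a log2 fold change of -1.89 (SE 0.65, adjusted p = 0.13). Its values in CtrlK lay far apart, and without CtrlK1 the log2 fold change was -0.92. *fzd9a* had 202 and 230 counts in CtrlK and 162 and 166 in DNK, a log2 fold change of -0.49 (SE 0.32, adjusted p = 0.41). *fzd8a*, chosen after its values were seen, had 133 and 12 counts in CtrlK1 and CtrlK2, against 12 and 0 in DNK1 and DNK2, so its difference came from CtrlK1.

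For *fzd8a*, *fzd9b*, *fzd10* and *lef1* the normalized counts ran in the order CtrlK1, CtrlK2, DNK1, DNK2, from high to low, which is also the order of the summed cardiomyocyte genes (13760, 4451, 1406 and 170.9 CPM). Before normalization *fzd8a* had 12 counts in both CtrlK2 and DNK1, and *lef1* had 87 in CtrlK1 and 100 in CtrlK2. Scaled to library totals alone, as the cardiomyocyte sums are, neither gene ran in that order, so their order rests on the normalization. These 4 are 11.8% of the tested members, and 8.41% of all tested genes ran in that order. Whether reads of cardiomyocytes had a part in their values was not tested. *fzd1*, *fzd3a*, *fzd3b* and *fzd5* had log2 fold changes between -0.32 and 0.27 with overlapping groups.

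The co-receptor *lrp5* had 658, 776, 891 and 686 counts in CtrlK1, CtrlK2, DNK1 and DNK2, with a log2 fold change of 0.04 (SE 0.18). *lrp6* had 122 and 124 counts in CtrlK and 58 and 132 in DNK, with a log2 fold change of -0.46 (SE 0.53). For both co-receptors the groups overlapped, and neither was called (adjusted p = 0.94 and 0.68, edgeR quasi-likelihood test). The summed normalized counts of the 16 receptors were 11164 and 11542 in CtrlK and 11232 and 12417 in DNK, and they overlapped as well.

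Inside the cell, *ctnnb1*, which encodes β-catenin, had 10500 and 13229 counts in CtrlK1 and CtrlK2, against 12414 and 11278 in DNK1 and DNK2. After normalization these came to 12220.5 ± 256 in CtrlK and 11462 ± 170.5 in DNK (mean ± SD, n = 2 libraries each), a log2 fold change of -0.09 (SE 0.08, adjusted p = 0.53, edgeR quasi-likelihood test). Both DNK libraries lay slightly below both CtrlK libraries. *axin1*, a scaffold of the complex that degrades β-catenin, had 775 and 847 counts in CtrlK and 754 and 835 in DNK, and *axin2*, a feedback inhibitor widely read as a target of β-catenin, had 413 and 461 in CtrlK and 537 and 378 in DNK. Their log2 fold changes were -0.12 and -0.04 (SEs 0.18 and 0.24, adjusted p = 0.75 and 0.95), and with counts scaled to the library totals alone the value of *axin2* was 0.04. *lef1*, a nuclear partner of β-catenin and itself a target, had 87 and 100 counts in CtrlK and 40 and 27 in DNK. The groups were apart, with 96.8 ± 4.25 and 32.2 ± 7.19 normalized counts (mean ± SD, n = 2 libraries each), but the log2 fold change of -1.58 (SE 0.57) had an adjusted p of 0.15 in edgeR's quasi-likelihood test, and between 0.085 and 0.20 over 7 alternatives.

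The 16 members that were not tested held at most 12 counts in any library. *wnt2*, *wnt5a*, *wnt7bb*, *fzd8b*, *sfrp1b*, *notum1a* and *notum2* had 0 counts in all 4 libraries, which allows up to 3 counts per library, or 0.119 CPM at the lowest depth. *wnt2ba* had 4 and 12 counts in CtrlK and 0 in both DNK libraries, *wnt6b* had 4, 2, 8 and 11 in CtrlK1, CtrlK2, DNK1 and DNK2, and *dkk3a* had 11, 0, 5 and 0. The nuclear factor *tcf7* had 1 and 2 counts in CtrlK and 1 and 10 in DNK. *wnt3*, *wnt9b*, *dkk1a*, *dkk1b* and *dkk2* had between 0 and 4 counts in every library. The groups did not overlap for *wnt2ba*, at least 2.62-fold lower in DNK against the floor of 3 counts per library, or for *wnt6b* and *dkk2*, whose counts were larger in both DNK libraries, those of *dkk2* being within the floor. None of the 16 was tested.

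A further list held 78 genes of the pathway outside the members, of which 70 were matched and 53 tested. edgeR called 3 higher and 1 lower (7.55%, against 8.45% of all genes), and DESeq2 called 5 higher and 5 lower, where it called 15.8% of all genes. The median log2 fold change of the list was 0.07. *ror1* (ENSDARG00000015176), a receptor tyrosine kinase-like protein of the branch without β-catenin, had 20 and 24 counts in CtrlK and 309 and 243 in DNK. Its normalized counts rose from 22.7 ± 0.306 to 266 ± 31.1 (mean ± SD, n = 2 libraries each), 11.7-fold, with a log2 fold change of 3.54 (SE 0.41, adjusted p = 0.0032, edgeR quasi-likelihood test). The related *ror2* had 107 and 46 counts in CtrlK1 and CtrlK2 and 538 and 238 in DNK1 and DNK2, a log2 fold change of 2.17 (SE 0.59, adjusted p = 0.072 in edgeR's quasi-likelihood test and 0.0043 with DESeq2). All DNK values of both *ror* genes lay above all CtrlK values.

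Of 10 tested planar polarity genes, edgeR called 1 higher and 1 lower (20%, against 8.45% of all tested genes), and 8 were not called. DESeq2 called 2 higher and 2 lower, where it called 15.8% of all genes. Among them were *celsr1a*, higher (log2 fold change 1.15, adjusted p = 0.091 in edgeR and 0.03 with DESeq2), and *prickle1b*, lower (-0.92, adjusted p = 0.064 in edgeR and 0.01 with DESeq2). *celsr1b*, an atypical cadherin of this system, had 163 and 187 counts in CtrlK and 811 and 928 in DNK, and its log2 fold change was 2.22 (SE 0.23, adjusted p = 0.0018, edgeR quasi-likelihood test). *vangl1*, a membrane protein of the same system, had 122 and 139 counts in CtrlK and 16 and 29 in DNK, 6.11-fold lower. Its log2 fold change was -2.61 (SE 0.58, adjusted p = 0.039), and its call was lost with any 1 of the 4 libraries left out (adjusted p between 0.057 and 0.16). *ccnd1*, the cyclin D1 gene and a target of β-catenin in several tissues, had 3619 and 4291 counts in CtrlK and 6049 and 5575 in DNK, 1.38-fold higher (log2 fold change 0.46, SE 0.09, adjusted p = 0.028, edgeR quasi-likelihood test). Its call was also lost with any 1 library left out (adjusted p between 0.088 and 0.11), with the log2 fold change between 0.44 and 0.48. Of the 6 tested target and feedback genes it was the only one called by edgeR (16.7%, against 8.45% of all tested genes). *sp5a* pointed the other way, with 28 and 73 counts in CtrlK and 7 and 2 in DNK (log2 fold change -3.51, adjusted p = 0.096 in edgeR and 0.027 with DESeq2). *sp5a* reached the filter on low counts only through CtrlK, the group in which it was higher, so its DESeq2 call is a description only. The calls of *ror1* and *celsr1b* stood in all of these analyses.

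Some genes of the epicardial and fibroblast list were also higher in DNK. Of its 12 genes, 11 were tested, 5 positive and 6 negative with a median log2 fold change of -0.02, and edgeR called 4 higher (4.22% of all genes were) and 0 lower, among them *pdgfra* (log2 fold change 1.34, adjusted p = 0.00073) and *col1a1a* (log2 fold change 0.79, adjusted p = 0.0013, edgeR quasi-likelihood test). The epicardial transcription factor *tcf21* had 19 and 56 counts in CtrlK and 14 and 0 in DNK, and *tbx18* had 47 and 62 in CtrlK and 0 and 4 in DNK. Whether these cells had a part in the values of *ror1*, *ror2* and *celsr1b* was not tested.

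**Figure D4:**
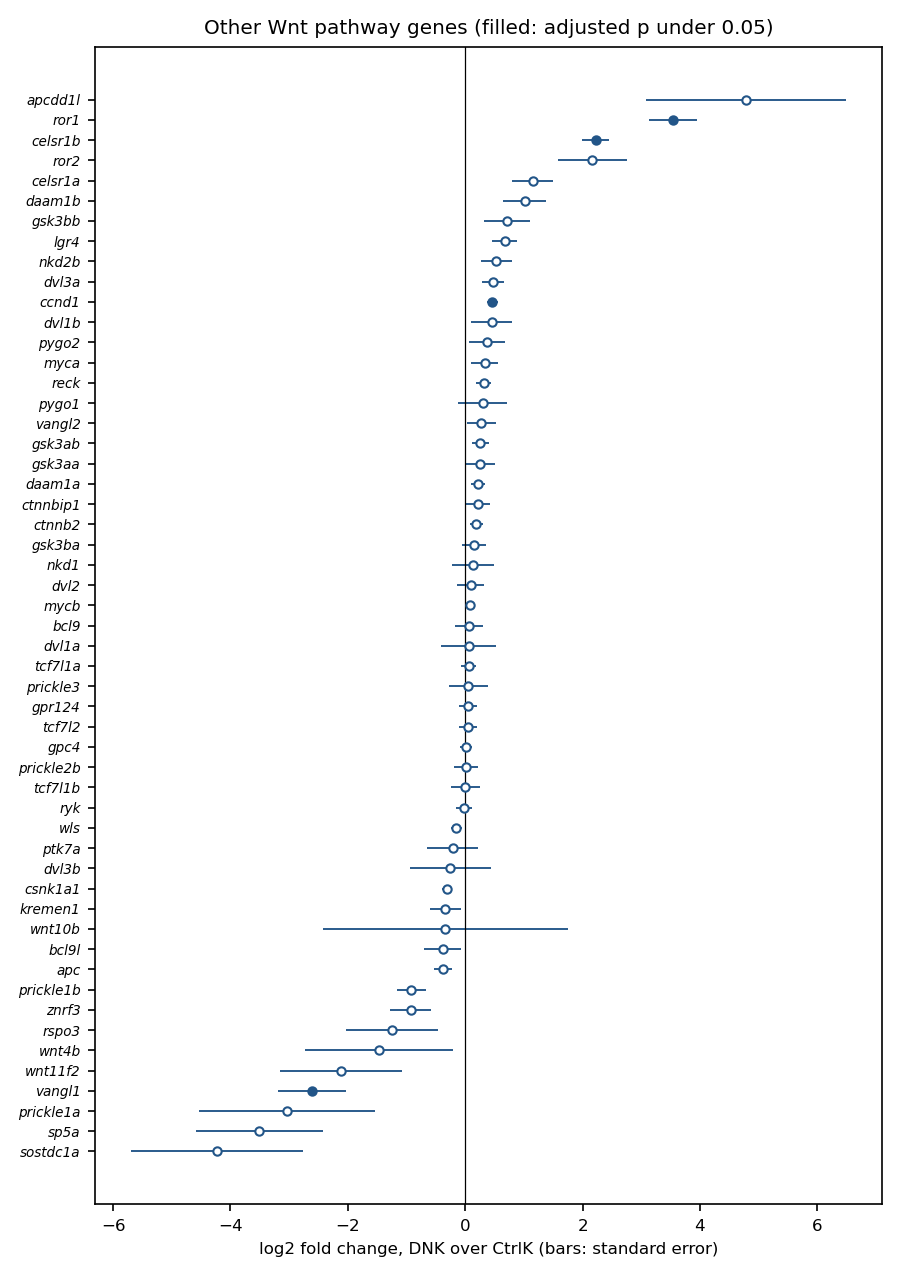
Log2 fold change of DNK over CtrlK from edgeR for the 53 tested genes of the wider Wnt pathway list, with bars for the SE; filled points have an adjusted p under 0.05. *ror1*, *celsr1b* and *ccnd1* lie to the right and *vangl1* to the left as called genes, and *ryk*, *gpc4* and *tcf7l1b* lie within 0.02 of 0.

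The part of the list that handles the signal inside the cell held no edgeR call. None of the 13 tested transduction genes and none of the 7 genes of the nuclear complex passed the adjusted threshold of edgeR, which 8.45% of all genes did. Of them 3 and 0 were at an unadjusted p under 0.05 and 1 and 0 called by DESeq2, where 23.9% and 15.8% of all genes were. The DESeq2 call was *csnk1a1*, lower in DNK (log2 fold change -0.30, adjusted p = 0.077 in edgeR and 0.012 with DESeq2). *wls*, which carries Wnt ligands to the cell surface, had 8851 and 10988 counts in CtrlK and 9151 and 9856 in DNK, a log2 fold change of -0.15 (SE 0.10, adjusted p = 0.42, edgeR quasi-likelihood test).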

How the data were processed

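The authors checked reads with FastQC (version 0.11.9), mapped them with HISAT2 (version 2.2.1) to GRCz11 and counted uniquely mapped reads per Ensembl gene with featureCounts (version 2.0.1). The deposited values are these whole-number counts for each library, unfiltered and not normalized. The strand setting of the counting is not given in the sources used here, so overlapping and antisense genes are uncertain, and leaving out reads that map to several places lowers near-identical copies.

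Here, TMM factors were computed for the 17151 genes passing filterByExpr, and the quasi-likelihood F-test of edgeR (version 4.0.16, R version 4.3.3) was applied (two-sided, robust), with group as the only term and Benjamini-Hochberg adjustment, and called at an adjusted p under 0.05. The FPKM filter of the study was replaced by filterByExpr. Standard errors are the log2 fold change divided by the square root of F. Normalized counts are scaled to the mean library size. The test was checked on simulated counts, where it missed many of the changes put in, so a gene not called may still differ. Fewer genes were changed there than were called here, so the share missed does not carry over to these data. The alternatives were DESeq2 (version 1.42.0), 3 other normalizations, 2 other filters, a replicate block and each library left out. Figures were drawn with Matplotlib (version 3.10.9). Replicates are separate libraries of pooled hearts. With 2 per group the p-values measure only the spread between these libraries, each gene's spread being drawn toward that of genes with similar counts. Floors cover counting error only, whereas the standard errors include the spread between libraries.

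Symbols came from the table of the study (6 members), a table of identifiers (28) and, for copies that share a human-style symbol, the chromosome on which the rows around them lie (25 above and 25 below) in the gene table of GRCz12tu (16 members, among them *fzd7a*, *fzd7b*, *fzd8a*, *fzd9a*, *fzd9b*, *dkk3b* and *wnt7aa*). Of 388 genes so named that the study also names, 94.1% had the same name. The table of the study is the one it gives for its differentially expressed genes. The 6 members in it were *wnt4*, *wnt11*, *fzd10*, *sfrp1a*, *sfrp5* and *notum1b*, which are also the members called here by edgeR or DESeq2. Of the wider list, *ror1*, *celsr1b*, *vangl1* and *ccnd1*, the genes called by edgeR, were also named from it. Coordinates and sequences are not given.

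The members and lists were chosen with earlier results of these data known. Named with values are members called, members with a mean of at least 50 normalized counts whose groups do not overlap, the 3 with the largest counts per class, members called by DESeq2 only and called genes of the wider list. Members and genes outside this rule are named after their values were seen.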

Additional observations from a re-analysis of the deposited data

How the results depend on the processing

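*wnt11* and *sfrp5* were called higher in all 7 alternatives of all libraries and with each library left out, and no other member was called higher in any of them. The number of members called lower, 1, was 4 with DESeq2, 8 without a filter on low counts (*wnt4*, *wnt7aa*, *fzd8a*, *fzd9b*, *fzd10*, *sfrp1a*, *dkk3b* and *notum1b*), 2 with at least 10 counts in every library and 2 with the replicate block, and 0 to 2 with a library left out. For the wider list, the 3 higher and 1 lower calls were 5 and 5 with DESeq2, 7 and 5 without the filter, 5 and 3 with at least 10 counts and 5 and 2 with the block, and with a library left out 2 to 3 and 0 to 1. Over all genes, the 723 higher and 726 lower calls were 1271 and 1432 with DESeq2, 1315 and 1775 without the filter, and with a library left out 354 to 425 and 328 to 567. The genes tested numbered 17151 with DESeq2, 24155 without the filter and 14320 with at least 10 counts in every library. With at least 10 counts in every library, 841 of all genes were called higher and 864 lower. The members called lower there were *wnt4* and *fzd10*. There *notum1b*, *sfrp1a* and *dkk3b* were not tested, as each had fewer counts in a DNK library. Otherwise the cause was not tested, beyond the smaller number of libraries when 1 is left out. With a library left out, a lone library is assumed to vary like the other group. Signs were followed only for the members named by the rule above and the called genes of the wider list. Among these, the log2 fold changes that changed sign, none of them called, were those of *axin2* (0.037 with total counts, -0.25 to 0.15 with a library left out), *wnt5b* (-0.12 to 0.21), *frzb* (-0.15 to 0.42), *fzd4* (-0.20 to 0.020) and *wif1* (-0.066 to 0.15). The numbers of the replicates are shared between the groups, but the deviations of same-numbered libraries correlated at only 0.09, and nothing in the labels pairs the fish. With the replicate block, 747 genes were higher and 894 lower, *wnt4* and *fzd10* were called (adjusted p = 0.035 each, edgeR) and *notum1b* was not (adjusted p = 0.052). Members with few counts and far-apart replicates could be judged only roughly at this depth with 2 libraries per group.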
